A study of Mus musculus with 16 samples.

Results

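Complement and the clotting cascade are neighbouring systems of plasma proteases, and hepatocytes secrete most of their components. The 48 genes described here are 20 coagulation and fibrinolysis factors and 28 complement components, regulators and receptors. They were taken from the deposited table of mouse liver RNA by gene symbol, and were chosen with earlier results of these data known. All 48 were found among its 23258 genes, and all 48 were among the 16830 genes that passed the filter on low counts. The livers were from mice of the C57BL/6 strain, either wild type or with miR-33 knocked out in the liver only, and each genotype was fed chow or a high-fat diet (HFD). There were 3 libraries of chow wild type, 4 of chow knockout, 4 of HFD wild type and 5 of HFD knockout, 16 in all. The name of the deposited table carries Alb-Cre, a recombinase under the albumin promoter, which is active in hepatocytes. The labels do not give the age of the mice, the composition or duration of the diet, or whether wild type livers carried Cre. They also do not say that the libraries of a group came from separate mice, so p-values measure the spread between these libraries, which may be technical.

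In clotting, the contact factors and tissue factor each start a chain of proteases that ends with thrombin, which cuts fibrinogen into fibrin. Antithrombin and the protein C and protein S pair slow the chain, and plasmin dissolves the clot. Complement is started by C1 on antibody, by mannose-binding lectins on sugars, or by the alternative pathway. All routes meet at C3 and end with the membrane pore of C5b to C9. The fragments C3a and C5a act on receptors of myeloid cells, and the C1q chains are made mainly by macrophages rather than by hepatocytes.

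MiR-33 is a microRNA encoded in an intron of Srebf2, and the deletion itself could not be read from these data because the microRNA is not a row of the table. The sequence of its 5-prime arm (RefSeq, GRCm38.p6, chr15:82198127-82198147, plus strand) is shown because it defines the sites searched for in the members. Capitals mark the seed, bases 2 to 8.
miR-33-5p: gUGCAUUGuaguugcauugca
The complement of the seed, CAATGCA, was found in the longest annotated 3-prime untranslated region of 3 of the 48 members (6.25%), against 8.24% of 15183 genes of the table. The members' regions were shorter, with a median of 436.5 bases against 1276. The 3 members were Serpinc1 (antithrombin), Mbl2 (a mannose-binding lectin) and C3ar1 (the C3a receptor), and their sites are given 5-prime to 3-prime with the seed match in capitals.
Serpinc1: agcgctctgcCAATGCActttc
Mbl2: attggttaccCAATGCAttctc
C3ar1: acttcaggatCAATGCAtgctt
None of the 3 passed the test in the knockout livers. The fitted log2 fold change of knockout against wild type was 0.07 ± 0.08 (SE) on chow and 0.07 ± 0.07 on HFD for Serpinc1, 0.10 ± 0.15 and 0.23 ± 0.13 for Mbl2, and 0.52 ± 0.31 and -0.15 ± 0.22 for C3ar1. A match of letters is a description and does not show that a site is used.

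The libraries held between 15888436 and 29469645 estimated counts. TMM scaling factors, which correct for differences in RNA composition, were 0.855 to 0.966 in the chow libraries and 1.02 to 1.18 in the HFD libraries, and 1 ribosomal RNA gene took 11.3 to 14.6% of the counts in 6 chow libraries, 2.54% in chow wild type 3 and 0.637 to 12.3% in the HFD libraries. Sample names fall into 2 series of numbers that coincide with the diets, so diet and anything else that differed between those series cannot be told apart. HFD knockout 1 was the highest of its 5 libraries for 30 of the 48 members, where it was highest for 26.5% of all genes. This was not particular to it. Chow knockout 4 was the highest of its group for 28 members (25.6% of all genes). Chow wild type 1 was the lowest of its group for 32 (31.8%). HFD knockout 1 stood apart in Hsd3b5, a steroid enzyme typical of male liver. It held 74.0 CPM (counts scaled by library depth and TMM factor), against at most 0.516 in the other HFD libraries and 7.93 to 86 in the chow libraries. In sex-linked genes it did not stand apart. Over the 16 libraries the Y-linked genes Ddx3y and Eif2s3y read 44.1 to 81.7 and 29.3 to 41.5 CPM, and Xist at most 0.707. HFD knockout 1 read 71.9, 36.8 and 0.234 CPM of the 3 genes. Its summed B and plasma cell markers were 123.6 CPM, against 5.44 to 21.6 in the other 15 libraries. Chow wild type 3 held 2220 CPM of Saa1, an acute phase gene, against 41.5 and 107 in the other chow wild type libraries, and chow knockout 2 held 1070.

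Ranked by CPM per kilobase of exon in chow wild type, C3 came first at 1941 ± 415 (SD), followed by Fga at 1699 ± 367, Vtn at 1165 ± 195, Fgb at 1070 ± 238 and Fgg at 1013 ± 216 (n = 3). Each of these overlapped with its neighbour in that order within 1 SD. The C5a receptor C5ar1 came last, at 0.177 ± 0.0688, below C3ar1 at 0.479 ± 0.146, the protease Cfd at 3.93 ± 2.62 and properdin, Cfp, at 5.53 ± 2.21, and the spreads of the 2 receptors did not overlap. Together the 48 members took 4.44 ± 0.608% of the scaled counts in chow wild type, 4.10 ± 0.508% in chow knockout, 2.89 ± 0.168% in HFD wild type and 3.03 ± 0.313% in HFD knockout (SD).

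With TMM scaling more members fell than rose on HFD in both genotypes (with library totals, in knockout more rose), many of them secreted by the liver, while the C1q chains and the anaphylatoxin receptors rose. A gene is called here when the adjusted p of edgeR's quasi-likelihood test was under 0.05 over all 16830 genes. In wild type, 8 members rose and 25 fell, where 15.2% of all genes rose and 14.2% fell (29.4% in all). In knockout, 8 rose and 18 fell, against 17.4% and 16.2% of all genes (33.6% in all). The median log2 fold change over the members was -0.36 in wild type and -0.20 in knockout, against -0.02 and -0.01 over all genes. Without HFD knockout 1 and chow wild type 3 the members' medians were -0.27 and -0.24. Both genotypes shared 7 members called higher and 17 called lower, and 13 were called in neither. No member was called in the test of whether the diet effect differs between genotypes, so a call in only 1 genotype is not a difference between them. With library totals in place of TMM, the median over all genes moved to 0.24 in wild type and 0.32 in knockout. The split of called members was then 9 higher and 10 lower in wild type and 18 higher and 4 lower in knockout. Measured against the median of all genes, the members' median was -0.34 in wild type under both scalings, and -0.19 with TMM and -0.20 with totals in knockout. A change of scaling shifts all genes of a library alike, so this agreement was fixed in advance and does not test the scaling. The members that fell in both genotypes under both scalings were Klkb1, C3, Serping1 and C8b, and in wild type F7, Proc, Plg, C1ra, Mbl1 and Vtn fell under both as well. The other falls called among the members passed with TMM and not with totals. With only the chow and HFD knockout libraries fitted, Pros1, C8b and Cfi were no longer called in knockout. With totals Mbl2 also passed as higher in wild type, and F9, F11, F13b, Cpb2, Masp2, C2, Cfp, C9, C4bp and Clu in knockout.

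**Figure D1:**
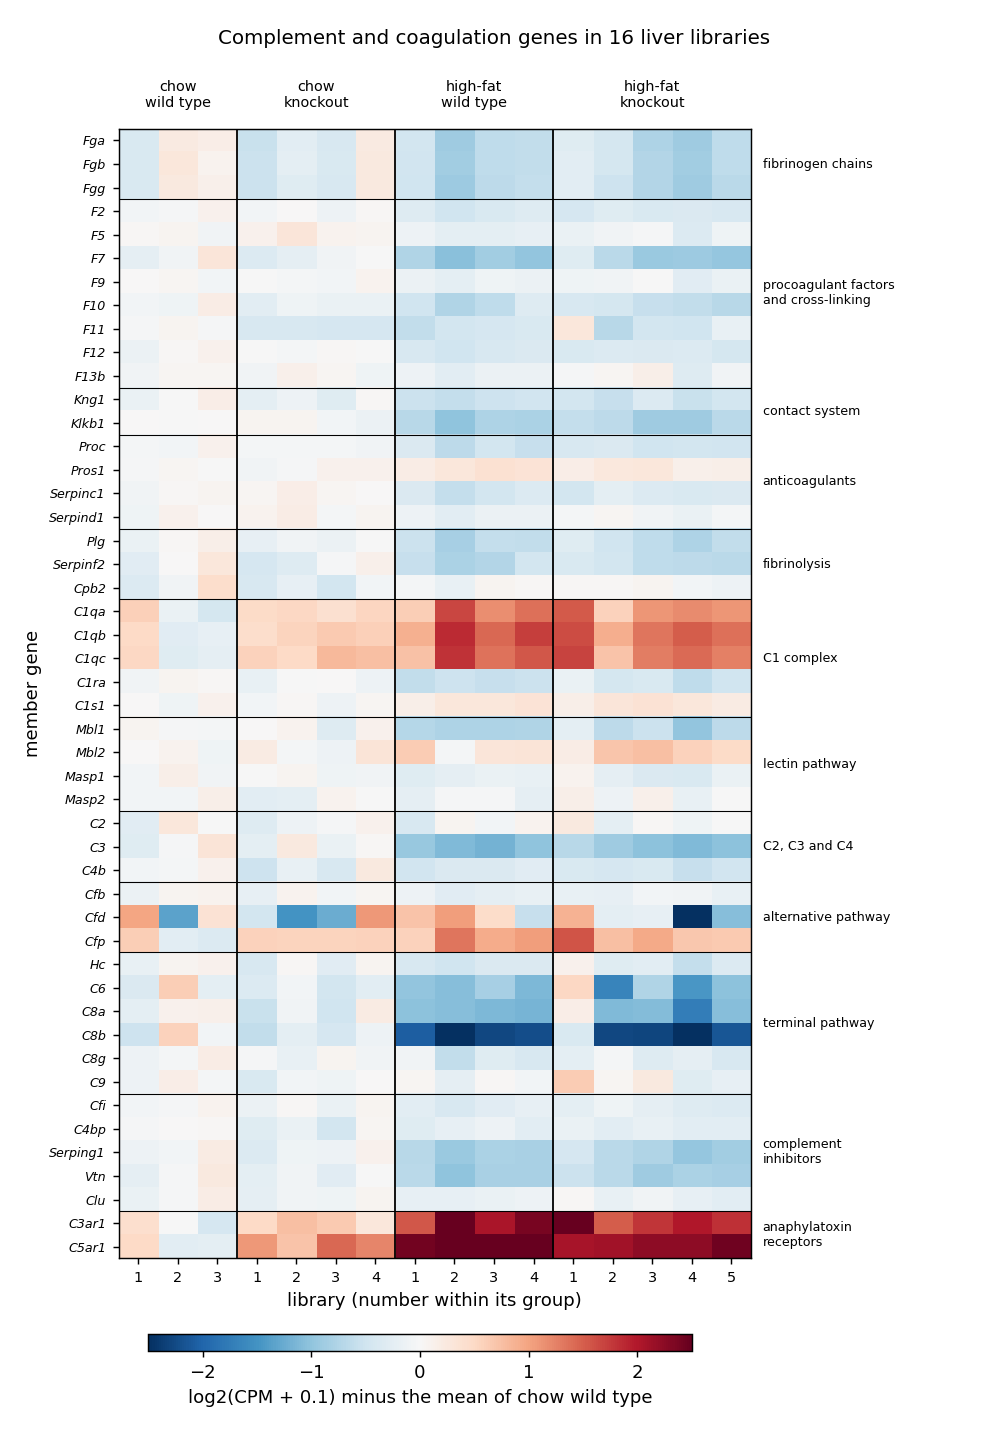
Rows are the 48 member genes grouped by role and columns are the 16 libraries by group. Colour gives log2(CPM + 0.1) minus the mean of the 3 chow wild type libraries, with colours saturated at the ends of the scale. HFD libraries are blue for most secreted factors and red for C1qa, C1qb, C1qc, C3ar1 and C5ar1, and HFD knockout 1 is pale at C8a and C8b where the other HFD libraries are blue.

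Fibrinogen is a hexamer of pairs of 3 chains, made by Fga, Fgb and Fgg from 1 cluster on chromosome 3, within chr3:83007724-83049863 (GENCODE annotation of GRCm38). Fga read 3846, 5876 and 5622 CPM in chow wild type, 3433, 4206, 3823 and 5894 in chow knockout, 3675, 2716, 3228 and 3280 in HFD wild type, and 4076, 3694, 2960, 2702 and 3224 in HFD knockout. The highest HFD wild type library lay below the lowest chow wild type library, whereas the knockout groups overlapped. All 3 chains fell on HFD in wild type, by 0.67 for Fga, 0.67 for Fgb and 0.68 for Fgg on the log2 scale (SE 0.18 each, adjusted p = 0.0114, 0.0112 and 0.01). In knockout their log2 fold changes were -0.38, -0.37 and -0.38 and none passed the test, with adjusted p from 0.0776 to 0.0842. Without HFD knockout 1 the 3 knockout values were -0.44, -0.44 and -0.46 and all passed (adjusted p = 0.0448, 0.0428 and 0.0329), as they did without chow knockout 1. The wild type calls rest on few chow libraries: without chow wild type 2 all 3 were lost (adjusted p = 0.0650, 0.0743 and 0.0609), and without chow wild type 3 Fga no longer passed (0.0519).

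The chains kept their proportions across libraries that differed widely in level. Per kilobase of exon, Fgb was 0.634 ± 0.0121 of Fga (SD over 16 libraries, range 0.599 to 0.656) and Fgg was 0.594 ± 0.0149 of Fga (0.564 to 0.615). The 3 promoters, from 250 bases before to 50 after the RefSeq start (GRCm38.p6), are shown because the 3 genes moved together. They lie at chr3:83025903-83026202 (plus strand) for Fga, chr3:83049814-83050113 (minus strand) for Fgb and chr3:83007474-83007773 (plus strand) for Fgg. Capitals mark matches, on either strand, to the HNF1 half-site GTTAAT, the C/EBP motif TTGCNNAA or the IL-6 response motif CTGGGAA.
Fga: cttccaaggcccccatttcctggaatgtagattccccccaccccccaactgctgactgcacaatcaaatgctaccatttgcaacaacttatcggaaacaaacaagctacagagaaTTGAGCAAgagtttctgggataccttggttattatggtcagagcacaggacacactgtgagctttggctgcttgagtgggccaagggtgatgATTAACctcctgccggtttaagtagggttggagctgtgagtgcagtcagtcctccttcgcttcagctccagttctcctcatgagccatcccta
Fgb: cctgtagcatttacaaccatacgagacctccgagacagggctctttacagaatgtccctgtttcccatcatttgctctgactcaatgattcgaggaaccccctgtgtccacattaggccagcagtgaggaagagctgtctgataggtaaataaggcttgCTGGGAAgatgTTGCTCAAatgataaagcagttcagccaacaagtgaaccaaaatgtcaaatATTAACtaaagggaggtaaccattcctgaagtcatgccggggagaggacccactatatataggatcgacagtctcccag
Fgg: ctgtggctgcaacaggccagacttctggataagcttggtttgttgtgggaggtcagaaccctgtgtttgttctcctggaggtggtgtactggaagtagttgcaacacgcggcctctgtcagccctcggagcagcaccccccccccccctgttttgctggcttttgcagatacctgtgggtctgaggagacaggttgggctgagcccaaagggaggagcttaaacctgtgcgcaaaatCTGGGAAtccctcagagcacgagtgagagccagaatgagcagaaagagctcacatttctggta
Fga held an HNF1 match that begins 43 bases before the start and a C/EBP match at 135. Fgb held all 3 motifs, at 29, 80 and 91 bases before the start, and Fgg held the IL-6 motif alone, at 13. A promoter was found for 37 of the 48 members, of which 11 (29.7%) held the HNF1 half-site against 6.23% of 13055 genes of the table. The C/EBP motif was in 11 (29.7%) against 11%, and the IL-6 motif in 7 (18.9%) against 13.1%. The motif of the myeloid factor PU.1, GAGGAAGT, was in 1, C1qc (2.70%), against 3.82%, and the HNF4 motif CAAAGTCCA was in none, against 0.636%. Motif matches are descriptions of the letters in these windows.

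Among the 8 genes of procoagulant factors and fibrin cross-linking, 5 fell in wild type and 5 in knockout, with group medians of -0.40 and -0.31. Both genotypes shared F2 (prothrombin), F7 (the partner of tissue factor), F10 (which activates prothrombin) and F12 (the contact factor). F7 read 76.5, 84.1 and 111 CPM in chow wild type, 70.6, 75.99, 84.1 and 88.7 in chow knockout, 53.4, 43.5, 48.7 and 44.9 in HFD wild type, and 72.03, 56.03, 47.1, 47.8 and 45.4 in HFD knockout. Every HFD wild type library lay below every chow library. F7 fell by 0.93 on the log2 scale in wild type (SE 0.15, adjusted p = 2.1e-04) and by 0.57 in knockout (SE 0.13, adjusted p = 0.0028). F12 read 369, 417 and 437 CPM in chow wild type, 402, 393, 415 and 403 in chow knockout, 308, 287, 308 and 316 in HFD wild type, and 312, 322, 317, 322 and 298 in HFD knockout. Its groups did not overlap between diets in either genotype, and its log2 fold change was -0.42 ± 0.07 in wild type and -0.36 ± 0.06 in knockout (adjusted p = 3.2e-04 and 3.2e-04). F2 fell by 0.38 and 0.33 and F10 by 0.55 and 0.37 in wild type and knockout.

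F5, the cofactor of F10, passed only in knockout (log2 fold change -0.29 ± 0.07, adjusted p = 0.0067), and with library totals its sign turned. F11, which activates F9, passed only in wild type (-0.47 ± 0.16, adjusted p = 0.0306), and that call was lost without any 1 of the 3 chow wild type libraries or of HFD wild type 1 and 2 (adjusted p up to 0.0941). F9 and F13b did not pass in either genotype, with log2 fold changes of -0.17 and -0.17 in wild type.

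Both contact system genes fell in both genotypes. Klkb1 encodes prekallikrein, which F12 activates, and Kng1 encodes kininogen, the source of bradykinin. Klkb1 read 556, 551 and 555 CPM in chow wild type, 578, 583, 528 and 503 in chow knockout, 343, 274, 324 and 319 in HFD wild type, and 365, 351, 298, 301 and 349 in HFD knockout. The 3 chow wild type libraries lay close together, and the diets did not overlap in either genotype. It fell by 0.81 in wild type (SE 0.09, adjusted p = 7.1e-06) and by 0.72 in knockout (SE 0.08, adjusted p = 4.9e-06), the smallest p-values among the members that fell. Klkb1 shares its locus with the overlapping model Gm45753 on the same strand, and the counting could have split reads between them. Kng1 fell by 0.54 and 0.33, and with library totals the sign in knockout turned.

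Of the 4 anticoagulant genes, 2 fell and 1 rose in each genotype. Serpinc1 (antithrombin) read 711, 764 and 788 CPM in chow wild type, 780.1, 842, 777 and 759.8 in chow knockout, 588, 501, 548 and 598 in HFD wild type, and 549, 634, 594, 579 and 586 in HFD knockout. Proc, the protease protein C, read 389, 388 and 436 CPM in chow wild type, 391, 389, 388 and 382 in chow knockout, 314, 256, 295 and 269.6 in HFD wild type, and 306, 316, 284, 294 and 289 in HFD knockout. Neither gene's diet groups overlapped in either genotype. Serpinc1 fell by 0.43 in wild type and 0.42 in knockout (adjusted p = 5.9e-04 and 1.9e-04), and Proc by 0.51 and 0.38 (adjusted p = 1.3e-04 and 4.3e-04). Pros1, which encodes protein S, the cofactor of protein C, moved the other way and read 69.3, 73.96 and 70.4 CPM in chow wild type, 67.2, 69.7, 76.7 and 76.8 in chow knockout, 81.1, 86.6, 92.1 and 89.8 in HFD wild type, and 80.1, 85.4, 86.5, 77.6 and 78.8 in HFD knockout. Every HFD library lay above every chow library of its genotype. Its log2 fold change was 0.29 ± 0.07 in wild type (adjusted p = 0.0056) and 0.17 ± 0.06 in knockout (adjusted p = 0.0497), where it no longer passed without 11 of the 16 libraries, each left out in turn (adjusted p up to 0.162). Serpind1, heparin cofactor II, did not pass (-0.17 and -0.13).

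In fibrinolysis, Plg, the precursor of plasmin, and Serpinf2, the plasmin inhibitor antiplasmin, both fell in both genotypes. Plg read 2400, 2748 and 2978 CPM in chow wild type, 2334, 2539, 2453 and 2678 in chow knockout, 1862, 1521, 1788 and 1758 in HFD wild type, and 2195, 1906, 1732, 1584 and 1753 in HFD knockout. It fell by 0.65 in wild type (SE 0.11, adjusted p = 2.5e-04) and by 0.45 in knockout (SE 0.10, adjusted p = 0.00151), and its diet groups did not overlap. Serpinf2 fell by 0.66 and 0.41, and without chow knockout 4 its knockout value did not pass (adjusted p = 0.0718). Cpb2, the carboxypeptidase TAFI that protects fibrin, read 210.5, 249.8 and 361 CPM in chow wild type, 202, 231, 195 and 254 in chow knockout, 259.6, 233, 279.6 and 272 in HFD wild type, and 273, 274, 278, 256 and 245 in HFD knockout. Its diet groups overlapped and it did not pass in either genotype (-0.07 ± 0.14 and 0.27 ± 0.12). Without chow wild type 3 the knockout value passed (adjusted p = 0.0266).

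**Figure D2:**
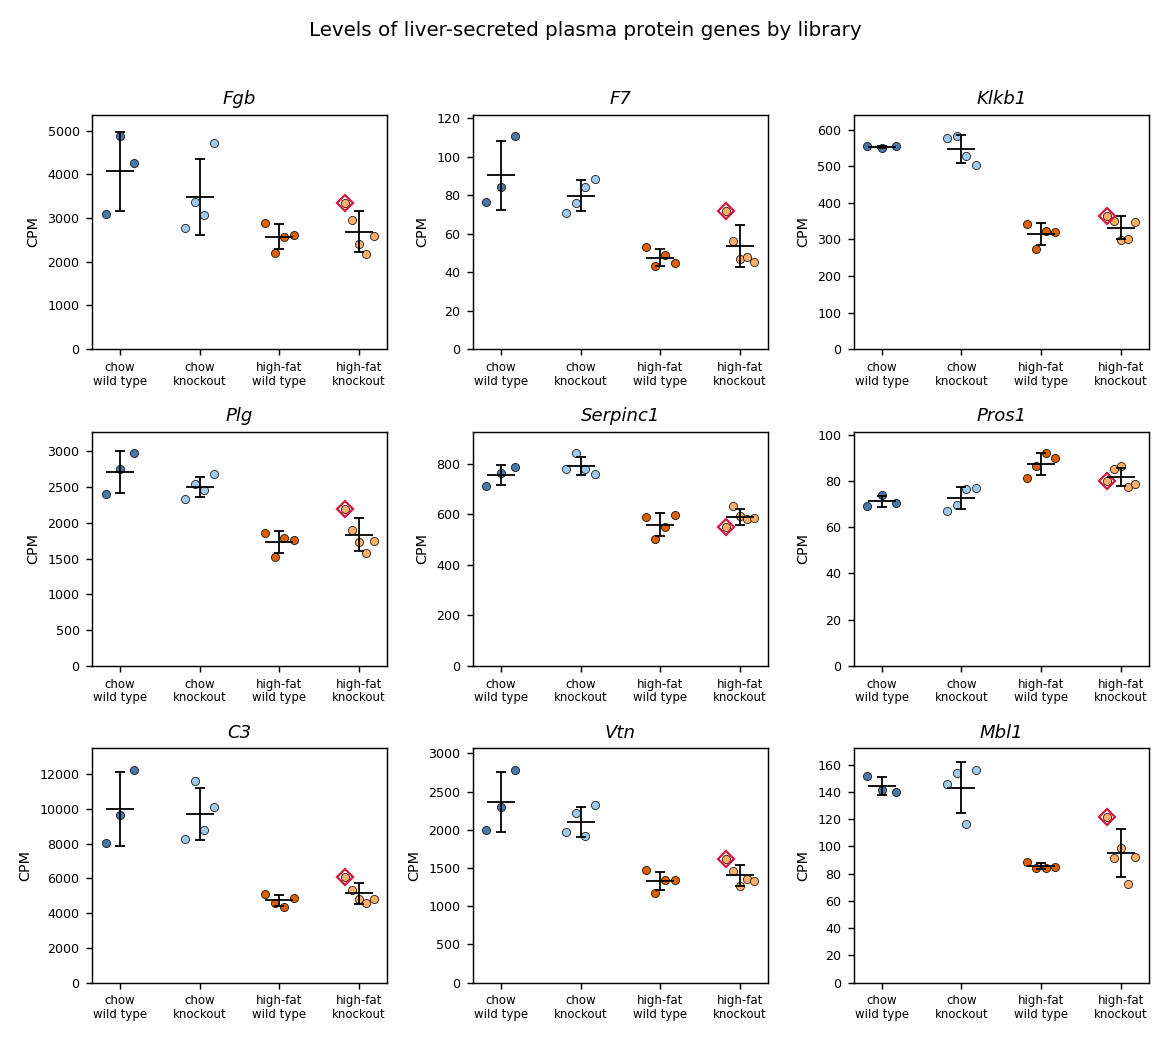
Each panel shows 1 gene, with CPM on the vertical axis from 0 and the 4 groups on the horizontal axis. Points are libraries, bars are the mean and SD, and the red diamond marks HFD knockout 1. HFD means lie lower for C3, Vtn, Klkb1, F7, Plg, Serpinc1 and Mbl1, and higher for Pros1.

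These falls ran beside a fall of hepatocyte markers. Of 12 hepatocyte markers, 8 fell in wild type and 7 in knockout and none rose, with median log2 fold changes of -0.49 and -0.55, and their summed level was 102000 to 115000 CPM in the chow libraries and 75500 to 94800 in the HFD libraries. Albumin itself did not pass, at -0.13 ± 0.12 (SE) in wild type. In bulk tissue, fewer cells of a type and less RNA per cell cannot be told apart, and the part of the hepatocyte markers' shift in the members' falls was not tested.

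The C1 complex split into 4 genes that rose and 1 that fell, in both genotypes. C1q, the recognition subunit, is built from the products of C1qa, C1qb and C1qc, which lie side by side within chr4:136880129-136898803. C1qb read 27.5, 16.1 and 16.8 CPM in chow wild type, 26.6, 28.9, 30.9 and 29.7 in chow knockout, 36, 71.5, 52.7 and 64.98 in HFD wild type, and 60.4, 36.7, 49.3, 56.2 and 50.6 in HFD knockout. All HFD wild type libraries lay above all chow wild type libraries, and the knockout groups did not overlap either. It rose by 1.48 on the log2 scale in wild type (SE 0.23, adjusted p = 2.8e-04) and by 0.80 in knockout (SE 0.20, adjusted p = 0.00599). C1qa read 31.6, 18.5 and 15.4 CPM in chow wild type, 29.2, 29.8, 27.7 and 30.2 in chow knockout, 32.03, 66.3, 46.6 and 54.6 in HFD wild type, and 60.8, 31.2, 44.7, 47.4 and 44.9 in HFD knockout. C1qc read 27.1, 15.4 and 16.3 CPM in chow wild type, 28.3, 26.8, 33.4 and 31.8 in chow knockout, 31.6, 66.6, 49.1 and 55.95 in HFD wild type, and 61.8, 31.3, 46.4, 51.1 and 45.3 in HFD knockout. For all 3 chains chow wild type 1 and HFD knockout 1 were the highest of their groups, and for C1qc the knockout groups overlapped. C1qa rose by 1.18 and 0.65 and C1qc by 1.37 and 0.65, and in knockout the call was lost without any 1 of 10 libraries for C1qa and 8 for C1qc (adjusted p up to 0.0923 and 0.0963).

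The C1 proteases C1r and C1s are encoded by C1ra and C1s1, 2 genes that lie close together on chromosome 6 (chr6:124512405-124523443 and chr6:124530345-124542359) on opposite strands. They moved in opposite directions. C1ra read 322, 362 and 350.3 CPM in chow wild type, 304, 341, 349 and 314 in chow knockout, 224, 241, 232 and 238 in HFD wild type, and 308, 256, 263, 221 and 242 in HFD knockout. C1s1 read 396, 364 and 425 CPM in chow wild type, 376, 404, 363 and 409 in chow knockout, 434, 477, 482 and 496 in HFD wild type, and 436, 487, 504, 479 and 457 in HFD knockout. C1ra fell by 0.56 in wild type (SE 0.09, adjusted p = 2.7e-04) and by 0.34 in knockout (SE 0.08, adjusted p = 0.00417). C1s1 rose by 0.26 (SE 0.08, adjusted p = 0.0231) and by 0.28 (SE 0.07, adjusted p = 0.00543), and its wild type call was lost without chow wild type 1 or 2 or HFD wild type 3 or 4 (adjusted p up to 0.121). Per kilobase, C1s1 was 1.09 ± 0.119 of C1ra in chow wild type and 1.92 ± 0.0679 in HFD wild type, with no overlap, and 1.14 ± 0.106 and 1.77 ± 0.261 in the knockout groups. Both genes have a close copy, C1rb and C1s2, and counting could have split reads between copies. C1rb held at most 0.650 CPM as a group mean.

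The promoters of this pair are shown for comparison, at chr6:124512371-124512670 (plus strand) for C1ra and chr6:124542310-124542609 (minus strand) for C1s1, with the same motifs in capitals.
C1ra: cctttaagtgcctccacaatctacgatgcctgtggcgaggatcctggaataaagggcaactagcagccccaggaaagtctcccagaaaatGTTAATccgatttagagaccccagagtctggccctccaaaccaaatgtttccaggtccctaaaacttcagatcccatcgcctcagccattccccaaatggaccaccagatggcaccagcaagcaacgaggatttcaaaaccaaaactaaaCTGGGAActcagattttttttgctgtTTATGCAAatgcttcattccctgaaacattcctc
C1s1: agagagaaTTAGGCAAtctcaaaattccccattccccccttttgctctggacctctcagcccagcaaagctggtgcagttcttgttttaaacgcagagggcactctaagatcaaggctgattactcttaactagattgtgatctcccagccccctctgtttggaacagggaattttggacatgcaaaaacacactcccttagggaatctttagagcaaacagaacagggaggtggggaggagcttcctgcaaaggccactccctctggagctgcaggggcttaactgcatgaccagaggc
C1ra held an HNF1 half-site at 160 bases before the start, the IL-6 motif at 10 before it and a C/EBP match at 16 after it, whereas C1s1 held a C/EBP match alone, at 242 before the start. RefSeq gives C1s1 another start nearby, and the window around it (chr6:124542272-124542571) held no match.

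The 2 mannose-binding lectins also went apart. Mbl1 read 152, 142 and 139.7 CPM in chow wild type, 146, 154, 116 and 156 in chow knockout, 88.5, 84.4, 84.3 and 85.2 in HFD wild type, and 121, 91.7, 99.1, 72.5 and 92.2 in HFD knockout. Mbl2 read 208, 221 and 193 CPM in chow wild type, 239, 201, 189.8 and 259 in chow knockout, 323, 201, 256 and 258 in HFD wild type, and 237, 337, 348, 311 and 289 in HFD knockout. Mbl1 fell by 0.76 in wild type (SE 0.13, adjusted p = 2.5e-04) and by 0.59 in knockout (SE 0.11, adjusted p = 5.7e-04). Mbl2 rose in knockout, by 0.45 (SE 0.13, adjusted p = 0.0127), and its wild type value was 0.32 ± 0.15 (adjusted p = 0.113, and 0.0363 without HFD wild type 2). Per kilobase, Mbl2 was 2.07 ± 0.154 of Mbl1 in chow wild type and 4.36 ± 0.747 in HFD wild type. Their protease partners Masp1 and Masp2 did not pass in either genotype, at -0.22 and -0.12 in wild type. Masp1 fell in knockout without HFD knockout 1 (-0.23, adjusted p = 0.0251).

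C3, on which all routes converge, read 8026, 9666 and 12260 CPM in chow wild type, 8287, 11630, 8804 and 10090 in chow knockout, 5116, 4604, 4344 and 4868 in HFD wild type, and 6104, 5316, 4842, 4574 and 4831 in HFD knockout. Every HFD library lay below every chow library. C3 fell by 1.08 in wild type (SE 0.14, adjusted p = 2.2e-05), to 0.474 of the chow level, and by 0.92 in knockout (SE 0.12, adjusted p = 2.0e-05), to 0.529. The loss of C3 was the largest change in CPM among the members, from a mean of 9985 to 4733 in wild type. C4b, one of the copies of C4, passed in wild type alone (-0.37 ± 0.13, adjusted p = 0.0367), and no longer passed without any 1 of the chow wild type libraries or of HFD wild type 1, 2 and 3 (adjusted p up to 0.137). In knockout it passed without chow knockout 1 or 3 (adjusted p as low as 0.0232). C4b has the near-identical copy C4a, so its level is uncertain. C2 did not pass, at -0.08 and 0.07. It and Cfb share the overlapping model Gm20547.

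In the alternative pathway, Cfp, which encodes the stabilising protein properdin of myeloid cells, read 14.02, 7.57 and 7.22 CPM in chow wild type, 13.7, 13.4, 13.5 and 13.8 in chow knockout, 13.8, 23.2, 17.6 and 19.1 in HFD wild type, and 27.5, 15.4, 17.7, 14.7 and 14.4 in HFD knockout. It rose by 0.93 in wild type (SE 0.25, adjusted p = 0.0109), although chow wild type 1 lay above HFD wild type 1. Without chow wild type 2 or 3 it did not pass (adjusted p = 0.0608 and 0.0588), and in knockout Cfp did not pass (0.40 ± 0.21). Cfb, the C3 convertase protease, did not pass (-0.21 and -0.11), except in wild type without chow wild type 1 (adjusted p = 0.0290). Cfd, which cuts factor B and is made by adipocytes, ranged from 0.314 to 6.40 CPM within and across groups and did not pass.

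The terminal pathway held the steepest fall. C8b encodes the beta chain of C8, through which C8 joins the growing pore. C8b read 173, 366 and 234 CPM in chow wild type, 161, 208, 183 and 226 in chow knockout, 58.5, 43.4, 50.9 and 52.8 in HFD wild type, and 188, 50.7, 49.97, 37.3 and 55.4 in HFD knockout. All HFD wild type libraries lay far below all chow wild type libraries, and in HFD knockout 4 libraries lay between 37.3 and 55.4 while the first was within the chow range. C8b fell by 2.33 in wild type (SE 0.48, adjusted p = 0.00302) and by 1.35 in knockout (SE 0.42, adjusted p = 0.0238). Without HFD knockout 1 the knockout value was -1.99 (adjusted p = 5.3e-06), and with it the knockout call was lost without HFD knockout 2, 3 or 5 or chow knockout 4 (adjusted p up to 0.0565). Hc, the mouse C5 gene, read 934, 1122 and 1149 CPM in chow wild type, 802, 1086, 877 and 1110 in chow knockout, 808, 756, 825 and 834 in HFD wild type, and 1142, 865, 886, 699.8 and 842 in HFD knockout. It passed in wild type alone (-0.41 ± 0.14, adjusted p = 0.0332), a call lost without chow wild type 2 or 3 or any 1 of the HFD wild type libraries (adjusted p up to 0.117), and it overlaps the antisense model Gm13449.

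C8a, which lies close to C8b on chromosome 4, fell by 1.11 in wild type (SE 0.34, adjusted p = 0.0239), a call lost without chow wild type 2 or 3 or HFD wild type 2 or 4 (adjusted p up to 0.0712). In knockout C8a reached -0.998 and passed without HFD knockout 1 (adjusted p = 2.9e-04, against -0.62 and 0.123 with it). C6 was similar: its values were -1.06 in wild type and -0.38 in knockout, neither passing, and without HFD knockout 1 they were -1.05 and -0.89 (adjusted p = 0.00394 and 0.00664). DESeq2 and limma voom called C6 in wild type, and voom called C8a in knockout, with all libraries kept. Within C8, the chains did not keep their proportions. Per kilobase, C8b was 0.551 ± 0.164 of C8a in chow wild type and 0.240 ± 0.0284 in HFD wild type, with no overlap, and 0.497 ± 0.0562 and 0.272 ± 0.0562 in the knockout groups. In HFD knockout 1, where both genes had chow-like levels, that ratio was 0.368. It lay between the 7 chow libraries (0.428 to 0.740) and the other HFD libraries (0.199 to 0.271). C8g, the third chain, fell by 0.35 in wild type, a call lost without chow wild type 3 or HFD wild type 2 or 4 (adjusted p up to 0.149), and C9 did not pass (-0.06 and 0.26).

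**Figure D3:**
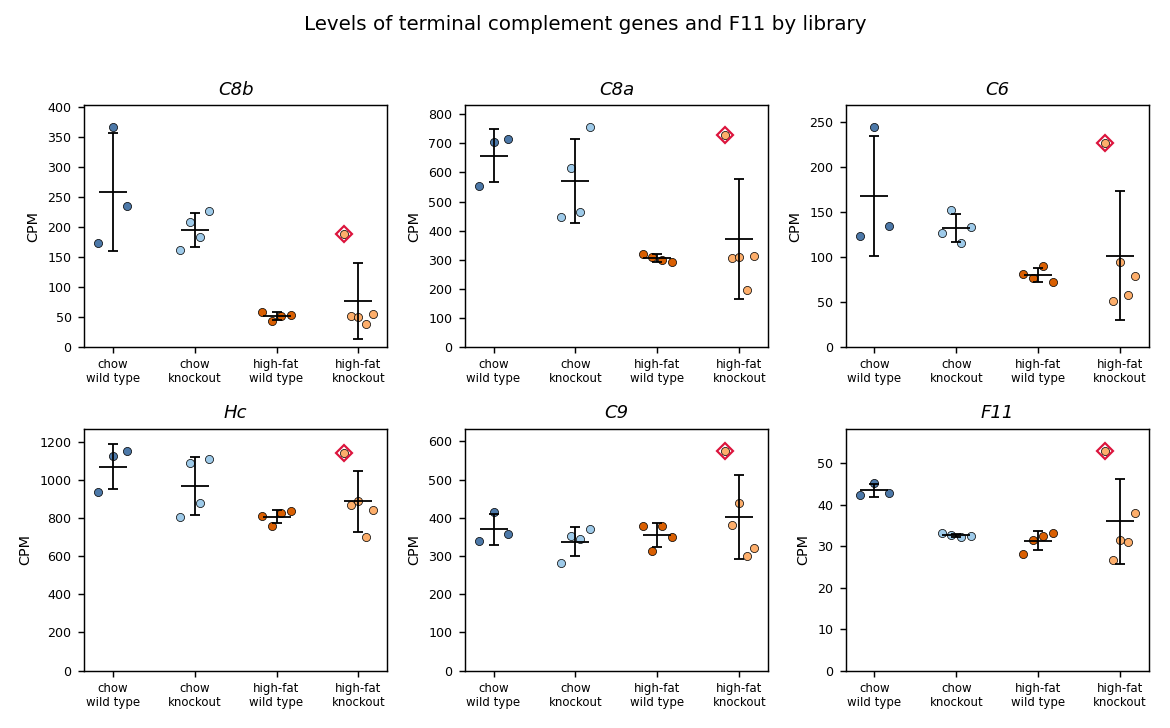
Each panel shows 1 gene, with CPM on the vertical axis from 0 and the 4 groups on the horizontal axis. Points are libraries, bars are the mean and SD, and the red diamond marks HFD knockout 1, which reads 188 CPM of C8b where the other HFD libraries read 37.3 to 58.5.

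Among 5 complement inhibitors, 3 fell in both genotypes. Serping1 encodes the C1 inhibitor, which also blocks kallikrein and F12, and read 791, 826 and 1005 CPM in chow wild type, 685, 809, 800.0 and 936 in chow knockout, 535, 458, 504 and 498 in HFD wild type, and 646, 548, 515, 442 and 474 in HFD knockout. Vtn, the vitronectin that holds the terminal complex in solution, read 2002, 2303 and 2788 CPM in chow wild type, 1968, 2216, 1920 and 2328 in chow knockout, 1468, 1174, 1344 and 1343 in HFD wild type, and 1614, 1459, 1269, 1362 and 1326 in HFD knockout. For both genes every HFD library lay below every chow library of its genotype. Serping1 fell by 0.81 in wild type and 0.62 in knockout (adjusted p = 1.2e-04 and 3.2e-04), and Vtn by 0.83 and 0.58 (adjusted p = 4.6e-05 and 2.6e-04). Cfi, the protease that cuts C3b, fell by 0.29 and 0.20. Its wild type call was lost without chow wild type 3 or HFD wild type 2 (adjusted p up to 0.0831), its knockout call without any 1 of 11 libraries (up to 0.142), and with library totals its sign in knockout turned. C4bp and Clu did not pass, at -0.22 and -0.18 in wild type. C4bp passed in wild type without chow knockout 4 (adjusted p = 0.0424).

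The 2 receptors of the anaphylatoxins rose most. C5ar1 read 0.659, 0.349 and 0.355 CPM in chow wild type, 1.03, 0.775, 1.35 and 1.15 in chow knockout, 2.75, 3.27, 3.07 and 4.30 in HFD wild type, and 2.15, 2.21, 2.43, 2.44 and 2.81 in HFD knockout. The diets did not overlap in either genotype. It rose by 2.83 in wild type (SE 0.28, adjusted p = 1.8e-06), or 7.11-fold, and by 1.18 in knockout (SE 0.22, adjusted p = 4.4e-04), or 2.27-fold. The wild type fold rests on chow levels of at most 0.659 CPM, where C5ar1 ranked last of the 48 members per kilobase. C3ar1 read 2.73, 1.98 and 1.48 CPM in chow wild type, 2.88, 3.45, 3.19 and 2.47 in chow knockout, 6.08, 11.7, 8.51 and 10.8 in HFD wild type, and 13.2, 5.89, 7.16, 8.34 and 7.34 in HFD knockout. It rose by 2.15 in wild type (SE 0.30, adjusted p = 4.5e-05) and by 1.48 in knockout (SE 0.25, adjusted p = 2.0e-04), again with no overlap between diets.

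**Figure D4:**
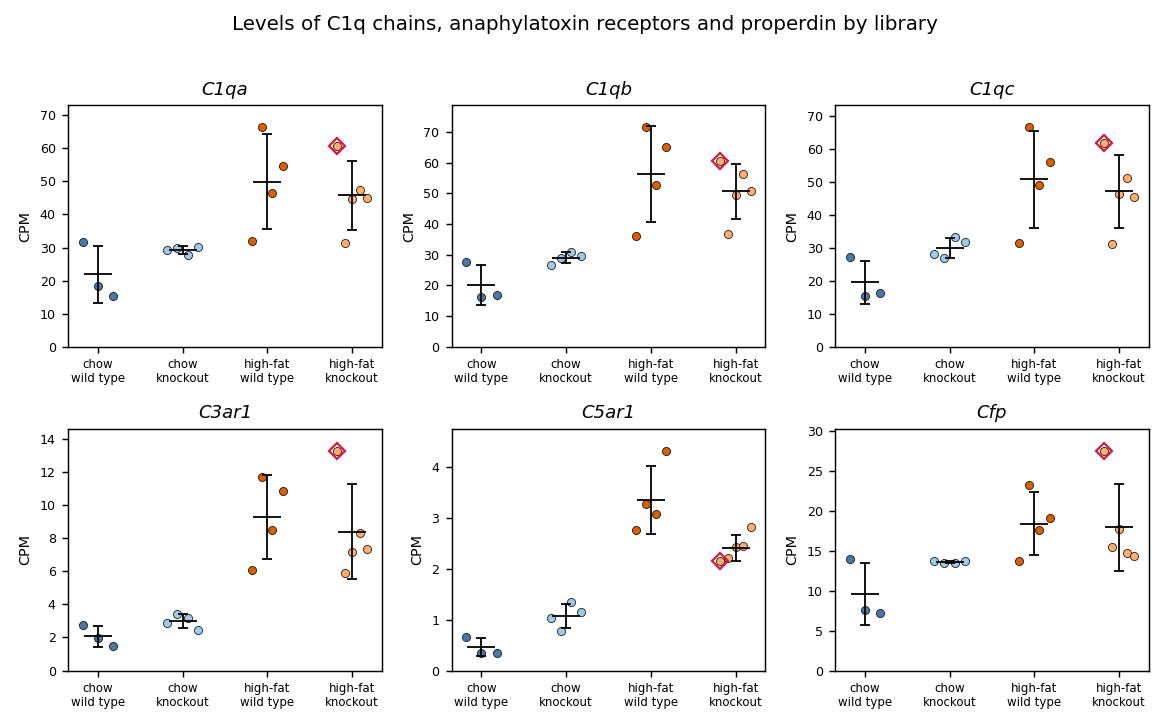
Each panel shows 1 gene, with CPM on the vertical axis from 0 and the 4 groups on the horizontal axis. Points are libraries, bars are the mean and SD, and the red diamond marks HFD knockout 1. Within each genotype HFD libraries lie above chow for the receptors and for C1qa and C1qb, the knockout groups of C1qc overlap, and for Cfp the groups of wild type overlap at 1 library each.

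Macrophage markers moved beside the receptors and the C1q chains. Of 12 markers of Kupffer cells and other macrophages, 8 rose in wild type with a median log2 fold change of 1.37, and in knockout 4 rose and 1 fell with a median of 0.54. Their summed level was 188 to 345 CPM in chow wild type, 320 to 367 in chow knockout, 492 to 846 in HFD wild type and 450 to 810 in HFD knockout. Chow wild type 1 (345) and HFD knockout 1 (809.5) were the highest of their groups, as for C1qa and Cfp. Of 9 markers of lipid-associated macrophages, 8 rose in each genotype (medians 2.92 and 2.41). All 4 tested neutrophil markers rose in wild type (median 3.47) and 1 in knockout (0.77), from sums of at most 12.5 CPM, with Mmp8 at 0 in chow wild type. Of 10 stellate and fibroblast markers, 9 rose in wild type and 8 in knockout (medians 1.27 and 0.92). The 2 adipocyte markers tested, Cidec and Fabp4, rose in both genotypes, while Adipoq was at 0 in all HFD wild type libraries and at most 0.212 CPM elsewhere. The part of these cell types in the members' changes was not tested.

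Sinusoidal endothelial markers gave 4 higher of 10 in wild type and 3 lower in knockout, and cholangiocyte markers 2 higher of 6 in each. Spp1 is in both the cholangiocyte list and the lipid-associated macrophage list. Of 8 T and NK cell markers 1 rose in wild type and none in knockout, and of 6 B and plasma cell markers none was called. Of 4 megakaryocyte and platelet markers, 2 rose in wild type, and 1 rose and 1 fell in knockout. Acute phase genes, many of which respond to the same cytokines as fibrinogen, did not move 1 way: 3 of 17 rose and 4 fell in wild type (median -0.47), and 3 rose and 3 fell in knockout (-0.21). Their sums were 11500 to 24600 CPM in chow wild type, the highest being chow wild type 3, and 11700 to 13900 in HFD wild type.

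Other genes of the clotting system, many of them expressed outside hepatocytes, were called higher more often than lower. Of 27 tested, 14 rose and 5 fell in wild type and 15 rose and 5 fell in knockout (medians 0.58 and 0.52). The largest rises in wild type were Anxa2, a cell surface receptor for plasminogen (3.30 ± 0.41), F13a1, the catalytic subunit of the cross-linking enzyme (3.16 ± 0.64), Plat, tissue plasminogen activator (2.998 ± 0.36), and Plaur, the urokinase receptor (2.21 ± 0.48). Serpine2, an inhibitor of thrombin, fell (-1.74 ± 0.41), as did Fgl1, a fibrinogen-like protein of hepatocytes (-1.59 ± 0.31), Hrg, the plasma protein histidine-rich glycoprotein (-0.61 ± 0.13), and Proz, protein Z (-0.51 ± 0.09). In knockout Anxa2, F13a1 and Plat rose by 2.84, 2.83 and 2.45, and Fgl1 fell by 1.60. Of 24 other complement genes tested, 6 rose and 3 fell in wild type and 8 rose and 2 fell in knockout (medians 0.25 and 0.11). Over all genes 15.2% rose and 14.2% fell in wild type, and 17.4% and 16.2% in knockout. Falls among these 24 were thus no more frequent than over all genes. The integrin chains Itgax (2.79 ± 0.35) and Itgb2 (1.97 ± 0.28), which form complement receptors on myeloid cells, rose in wild type, as did Itgam (1.81 ± 0.38) and Cd93 (1.40 ± 0.15). Itgax is also in the list of lipid-associated macrophage markers. Susd4, a complement inhibitor (-2.61 ± 0.56), and C1rl (-0.36 ± 0.07) fell.

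The deletion of miR-33 gave no called member on either diet. On chow, 0 members passed edgeR's test and 0.00594% of all genes were called. An unadjusted p under 0.05 was found for 6 of the 48 members and 1001 of all 16830 genes. On HFD 0 members passed and again 0.00594% of all genes were called, with 1 member and 641 of all 16830 genes at an unadjusted p under 0.05. DESeq2 and limma voom also called 0 members in both comparisons. Of the 48 members 37 lay below 0 on chow and 38 above 0 on HFD, against 8397 and 8599 of all 16830 genes. The median log2 fold change over the members was -0.07 on chow and 0.06 on HFD. It was -0.02 on chow without chow wild type 3 and 0.02 on HFD without HFD knockout 1. The members' values are not independent of each other.

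On chow the members with the smallest p were C5ar1, F11 and Cpb2. C5ar1 read 0.659, 0.349 and 0.355 CPM in wild type and 0.775 to 1.35 in knockout, a log2 fold change of 1.18 ± 0.30 (adjusted p = 0.763), with no overlap. F11 read 42.2, 45.2 and 42.7 CPM in chow wild type, 33.04, 32.7, 32.3 and 32.4 in chow knockout, 28.2, 31.6, 32.5 and 33.1 in HFD wild type, and 52.8, 26.7, 31.4, 30.9 and 37.9 in HFD knockout. On chow all 4 knockout libraries lay below all 3 wild type libraries, and the log2 fold change was -0.41 ± 0.16 (adjusted p = 0.773). The value for Cpb2 was -0.31 ± 0.14 (adjusted p = 0.827), with overlapping groups, and rested on chow wild type 3: it was -0.06 without that library. The C1q chains stood at 0.41, 0.52 and 0.61, beside a median of 0.62 over the 12 macrophage markers, none of them called, and at 0.78, 0.82 and 0.92 without chow wild type 1. Chow wild type 1 lay at the knockout level for C1q and for the macrophage sum, and the other 2 wild type libraries below it.

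On HFD the smallest p belonged to C5ar1 (-0.47 ± 0.19, adjusted p = 1.00), Mbl2 (0.23 ± 0.13) and C1ra (0.14 ± 0.08), each with overlapping groups. Mbl2 was 0.12 without HFD wild type 2 and 0.35 without HFD wild type 1, and C1ra was 0.07 without HFD knockout 1. The test of whether the knockout effect differs between the diets called 0 members and 0% of all genes. In it 3 members and 1110 of all 16830 genes had an unadjusted p under 0.05. DESeq2 called 0 members and 13 of all genes. The smallest p was that of C5ar1, with a difference of -1.65 ± 0.36 on the log2 scale (adjusted p = 0.416), followed by F11 (0.61 ± 0.21) and C1qb (-0.68 ± 0.30). These comparisons share libraries, since chow wild type enters both the diet effect in wild type and the knockout effect on chow, so their values are not independent. The F11 difference was 0.44 without HFD knockout 1.

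**Figure D5:**
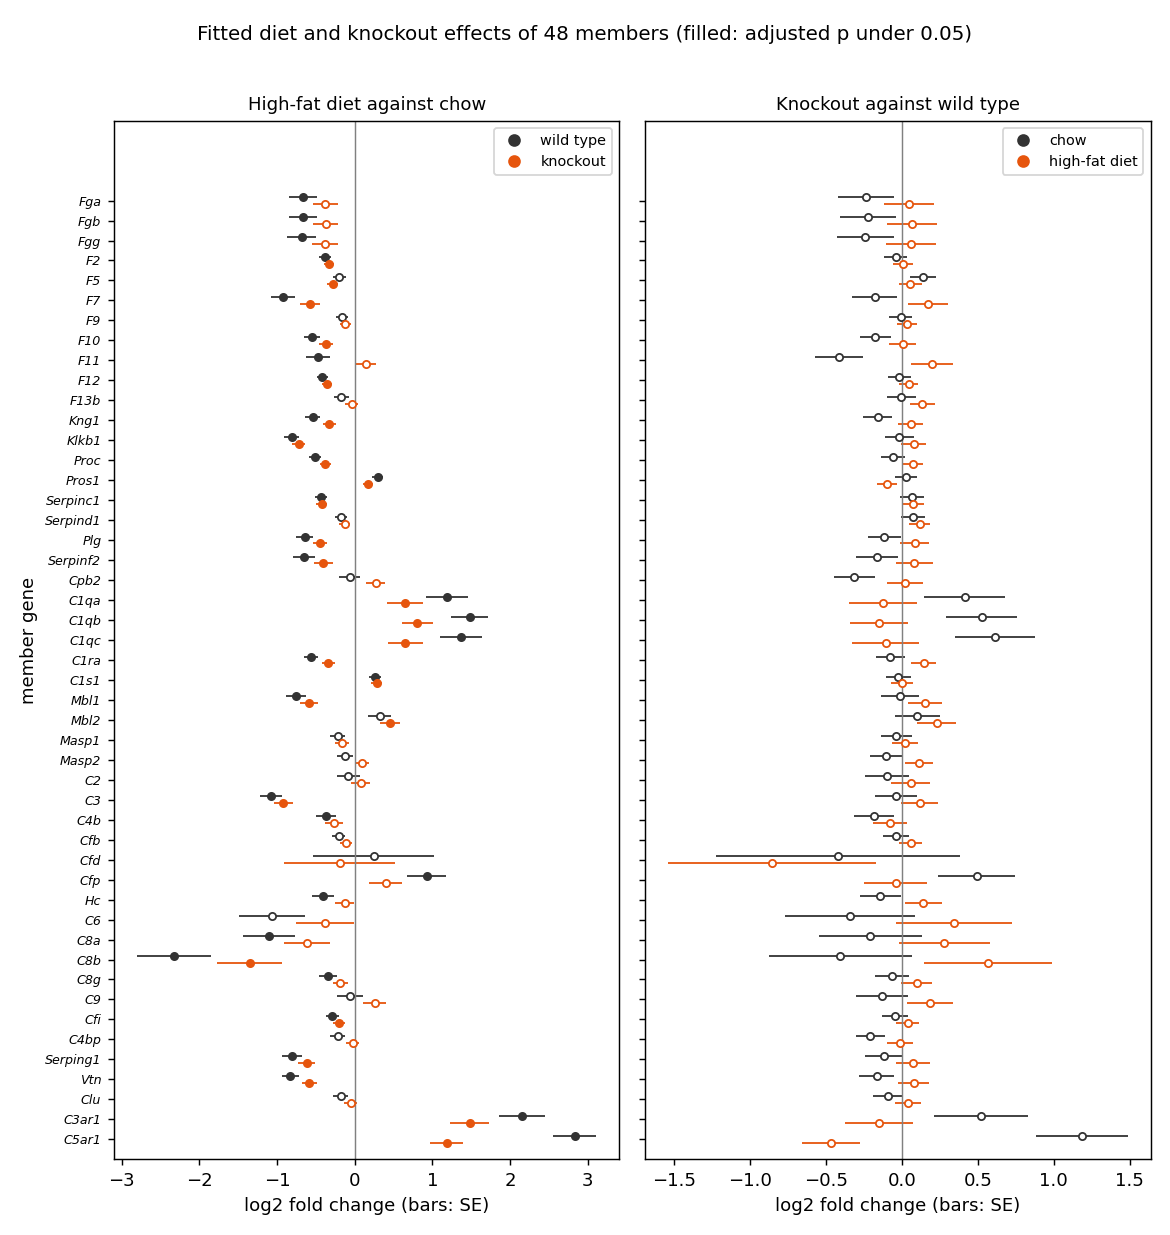
Each row is 1 member. The left panel plots the log2 fold change of HFD against chow in wild type and knockout, and the right panel that of knockout against wild type on each diet, with bars of 1 SE and filled points for adjusted p under 0.05. Filled points appear in the left panel alone, from C8b at -2.33 to C5ar1 at 2.83.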

How the data were processed

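Liver RNA of 16 libraries was depleted of ribosomal RNA and sequenced, per the labels' protocols, which name a small RNA library kit and do not give the strand setting. After trimming, TopHat2 aligned the reads and Cuffdiff gave transcript abundances, per the labels' protocols, on build mm10, per the submitters' processing notes. The authors deposited estimated counts per gene, not scaled to depth or length, and the step that made them is not stated by the labels. These were rounded to whole numbers, filtered with filterByExpr on the 4 groups, scaled by TMM and tested with edgeR 4.0.16 (robust quasi-likelihood, 12 residual degrees of freedom, two-sided, Benjamini-Hochberg over 16830 genes, threshold 0.05) in 1 model of 4 group means. SE is the log2 fold change divided by the root of F. Levels are CPM of TMM-scaled totals. Library totals were 15888436 to 29469645, and intervals cover the spread between libraries. Exon lengths, overlapping genes and untranslated regions came from the GENCODE annotation of GRCm38, and promoters and miRNA from RefSeq tables of GRCm38.p6. The analysis was tested on simulated counts.

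Groups came from the labels. The members and lists were chosen with earlier results of these data known. All members were accounted for by role. Values in every library were given for up to 8 called members each way with the smallest p per diet comparison, for the 3 members with the smallest p in knockout comparisons, and for the highest member of any role not covered. Fgb, Fgg, C6, C8a and C8b were singled out after their values were seen. Other pathway genes were named by size, up to 4 called each way whose higher group averaged 1 CPM or more. Alternatives were DESeq2 1.42.0, limma 3.58.1 voom, 3 other scalings and 2 other filters. Further fits dropped the ribosomal RNA gene, took only the groups compared, or left out libraries. Of the members, 11 overlap another gene, 6 of them on the same strand. The values of 1 gene that the naming rule picked among the other complement genes are not reported here.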

Additional observations from a re-analysis of the deposited data

Results flagged for a closer look

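In groups of 4 or 5 libraries, 5 of 144 tested sets of member values had 1 library far from the others, where chance gives about 1 in 20. The number flagged is thus not above that rate, and the sets are not independent of each other. F5 read 1110 CPM in chow knockout 2 against 952 to 977 in the other chow knockout libraries. The remaining 4 were all the highest value of HFD knockout 1. Cfp read 27.5 against 14.4 to 17.7, C6 read 227 against 50.8 to 94.2, C8a read 731 against 196 to 314, and C8b read 188 against 37.3 to 55.4. In that library Hsd3b5 was 74.0 CPM, against at most 0.516 in the other HFD libraries of either genotype and 7.93 to 86 in the chow libraries. The summed B and plasma cell markers were 123.6 CPM against 6.09 to 21.6 in the other HFD libraries. The summed macrophage markers were 809.5 CPM against 450 to 576 in the other HFD knockout libraries and 492 to 846 in HFD wild type. The part of these differences in the 4 values was not tested.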

How the results depend on the processing

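Over all alternatives, 251 counts of called members lay within 1.5 times the main one or were 0 in both, and 7 did not. The counts of the knockout comparisons and of the difference were 0 throughout and are among the 251. The 7 all belong to the diet comparisons. With library totals alone, the count of members lower on HFD in wild type was 10, and in knockout the counts were 18 higher and 4 lower, as the median over all genes moved by construction. The rest of the 7 were counts of members higher in knockout, which dropped to 5 without HFD knockout 3 or 5 or chow knockout 1 or 2. Leaving out 1 library at a time gave 6 to 9 higher and 18 to 26 lower in wild type, and 5 to 8 higher and 15 to 23 lower in knockout, with 0 in the knockout comparisons and the difference. Without HFD knockout 1 and chow wild type 3 together, wild type gave 8 higher and 22 lower and knockout 7 higher and 21 lower. For the members named by rule, 1018 alternative values kept their side of the threshold, 45 lost the call and none turned sign. F5, Kng1 and Cfi, outside that rule, turned sign in knockout with library totals. No paired analysis was possible because the labels give no pairing of libraries between groups. With 3 to 5 libraries a group, a value that did not pass does not show that the groups were alike.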
